A study of Mus musculus with 4 samples.

Results

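The genes described here are 2 lysozymes and 8 marker genes of macrophages, the tissue phagocytes of the innate immune system, measured in heart muscle cells grown from mouse embryonic stem cells. The set was named from earlier results on these same arrays, and it holds Lyz1, Lyz2, Marco, Chit1, Fcer1g, Itgam, Csf1r, Cd68, Adgre1 (listed under its older name Emr1) and Ptprc. A probe carrying a RefSeq accession of the gene was found for 9 of the 10, with 14 probes in all, among 20881 named genes on the array. The signal of Cd68 was not analysed here. Of the 9, 8 were bright enough for the test between the groups, and Ptprc was not.

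CGR8 is a mouse embryonic stem cell line, and cardiomyocytes grown from it received, for 48 hours, either a small interfering RNA that targets Erbb4 (siErbB4, 2 samples) or a scrambled one (siScr, 2 samples). No genotype beyond the line is labelled, and all 4 samples share the line, the low-serum medium and the transfection reagent. Erbb4 encodes a neuregulin receptor of the epidermal growth factor receptor family. Groups follow the sample titles and the field for transfection, but 2 other labels go against them: the scrambled RNA stands in the descriptions of the siErbB4 samples, and ErbB5 in the source name of siErbB4 replicate 2. In addition, an incubation of 6 or 24 hours is given without saying which samples had which. The probe for Erbb4 was too dim on these arrays to check the knockdown, so directions are those of the labelled groups.

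Lysozymes are secreted enzymes that cut the peptidoglycan of bacterial cell walls. In the mouse, Lyz2 is the lysozyme of macrophages and neutrophils and Lyz1 that of Paneth cells of the gut, and the 2 genes lie side by side. Macrophages settle in the embryonic heart early and take up debris and dying cells. They depend on the growth factor receptor Csf1r, they carry the pan-leukocyte phosphatase Ptprc (CD45), and the integrin chain Itgam (CD11b) and the adhesion receptor Adgre1 are used to identify them. Marco is a scavenger receptor for bacteria and particles, Chit1 is a chitin-cutting enzyme secreted by activated macrophages, and Fcer1g is the signalling chain shared by several Fc receptors.

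Each sample was hybridised to its own 1-colour array, all 4 on 1 slide and read in 1 scan. Between 64.8% and 68.5% of probes were well above background, the scanner software's flag for a spot distinctly brighter than its surroundings. All 15 listed cardiomyocyte markers had that flag on all 4 arrays. Arrays with the same replicate number stood apart from the other number in both groups: deviations from the group means correlated at 0.68 across features between same-numbered arrays. The replicate 2 arrays lay at positions 2 (siErbB4) and 1 (siScr) of the slide and the replicate 1 arrays at positions 4 (siErbB4) and 3 (siScr), and position and replicate number cannot be told apart. No label states whether replicates were separate cultures, so the spread behind every p-value is that between these samples and may be technical. With 2 samples against 2 an exact two-sided permutation test cannot go below 0.333, and 4 arrays limit the precision throughout.

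The promoters of Lyz1, Lyz2, Chit1 and Marco, members that differed strongly between replicates, are shown first. Lyz1 and Lyz2 ran almost alike, while Chit1 and Marco ran in opposite directions. Whether promoter sequence has a part in this was not tested. The brighter Adgre1 probe differed more than Chit1, but no Adgre1 window was among those searched. Each window runs from 250 bases before the gene's start to 50 after it, as 300 bases in RefSeq's annotation of build GRCm38.p6, and is written along the gene. Capitals mark 3 motifs read on both strands. They are GAGGAA, the core bound by the myeloid factor PU.1, AGGAAG, the core of the wider ETS family, and TGANTCA, the AP-1 element. The first 2 overlap wherever GAGGAAG occurs. The Lyz1 window is chr10:117292819-117293118 on the minus strand and the Lyz2 window chr10:117282223-117282522 on the minus strand, with 0 protein-coding genes between the 2 genes. The Chit1 window is chr1:134110992-134111291 on the plus strand and the Marco window chr1:120504975-120505274 on the minus strand.
Lyz1: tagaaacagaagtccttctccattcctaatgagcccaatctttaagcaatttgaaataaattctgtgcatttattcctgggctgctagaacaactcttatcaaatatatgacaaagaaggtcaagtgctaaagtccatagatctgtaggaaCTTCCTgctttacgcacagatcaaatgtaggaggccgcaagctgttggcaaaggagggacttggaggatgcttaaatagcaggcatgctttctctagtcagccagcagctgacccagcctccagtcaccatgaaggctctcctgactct
Lyz2: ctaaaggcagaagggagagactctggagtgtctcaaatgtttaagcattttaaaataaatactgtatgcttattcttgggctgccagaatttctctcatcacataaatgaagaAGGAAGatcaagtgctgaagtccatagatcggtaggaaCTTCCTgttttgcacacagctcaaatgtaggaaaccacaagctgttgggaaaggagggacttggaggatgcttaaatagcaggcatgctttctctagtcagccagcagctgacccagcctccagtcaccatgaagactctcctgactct
Chit1: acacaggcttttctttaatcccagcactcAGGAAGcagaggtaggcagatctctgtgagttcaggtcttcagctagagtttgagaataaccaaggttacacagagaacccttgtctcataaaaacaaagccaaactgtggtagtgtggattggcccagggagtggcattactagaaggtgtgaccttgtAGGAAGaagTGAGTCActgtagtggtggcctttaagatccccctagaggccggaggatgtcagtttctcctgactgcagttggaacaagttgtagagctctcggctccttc
Marco: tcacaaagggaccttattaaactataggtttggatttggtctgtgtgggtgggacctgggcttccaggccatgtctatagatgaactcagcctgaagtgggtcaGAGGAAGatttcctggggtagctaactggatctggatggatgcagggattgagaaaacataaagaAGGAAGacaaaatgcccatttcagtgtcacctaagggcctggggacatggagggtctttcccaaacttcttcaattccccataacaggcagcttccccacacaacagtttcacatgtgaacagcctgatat

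Compared base by base without gaps, the Lyz1 and Lyz2 windows were identical at 201 of 300 positions (67%). The likeness lay towards the gene: 141 of the last 150 positions (94%) and 60 of the first 150 (40%) were identical, and the longest identical run covered 86 bases, from base 201 to base 286. Both windows hold AGGAAG on the minus strand at bases 152 to 157, and the Lyz2 window holds a second match at bases 114 to 119. The Marco window holds 1 GAGGAA and 2 AGGAAG, and the Chit1 window 2 AGGAAG and 1 TGANTCA. Among the windows not printed, Fcer1g held 2 AGGAAG and Itgam held 3 GAGGAA and 2 AGGAAG. For Ptprc 1 window held 1 GAGGAA and 3 AGGAAG, and an overlapping one held 1 AGGAAG. The Cd68 window held 2 GAGGAA and 2 TGANTCA, and no Csf1r window was searched. Of 32851 promoter windows of the same length, 28.3% held GAGGAA, 35.4% AGGAAG and 7.81% TGANTCA, so the matches are a description of these letters only.

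Lyz1, Lyz2 and Chit1 were several-fold brighter on the replicate 2 array than on the replicate 1 array of each group. These differences between replicates were part of how the set was chosen, so they are given as a description with no test. The processed signal of Lyz1, the scanner's background-corrected intensity, was 3961 on siErbB4 replicate 2 and 314 on siErbB4 replicate 1, and 3886 on siScr replicate 2 and 482 on siScr replicate 1. After each array was scaled by its 75th percentile, replicate 2 was 12.7-fold above replicate 1 in siErbB4 cells (log2 difference 3.67) and 9.08-fold in siScr cells (3.18). Lyz2 followed the same order at its own level, with signals of 790.0 and 71.3 on siErbB4 replicates 2 and 1, and 838 and 118 on siScr replicates 2 and 1. Its scaled log2 differences were 3.48 in siErbB4 cells and 2.997 in siScr cells. For both lysozymes the replicate 2 arrays were the bright ones in either group, and the groups overlapped. The 2 genes code for closely similar transcripts, so each probe may also read the other gene, and their values are uncertain as separate measurements.

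Chit1 ran the same way at a dimmer level. Its processed signal was 75.6 and 12.8 on siErbB4 replicates 2 and 1, and 74.9 and 20.2 on siScr replicates 2 and 1, with all 4 values well above background. The scaled log2 differences, replicate 2 minus replicate 1, were 2.57 in siErbB4 cells and 2.07 in siScr cells. Ordered by the smaller of the 2 groups' differences, Lyz1 stood 1st, Lyz2 2nd and Chit1 15th from the top of all 20918 tested features. In these bulk samples, fewer cells of a type and less RNA per cell cannot be told apart.

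Marco, Fcer1g and Adgre1 ran the opposite way, brighter on the replicate 1 arrays. Marco had processed signals of 26.5 on siErbB4 replicate 2 and 320.2 on siErbB4 replicate 1, and 47.7 on siScr replicate 2 and 686 on siScr replicate 1. Its scaled log2 differences, replicate 2 minus replicate 1, were -3.58 in siErbB4 cells and -3.68 in siScr cells. By the same ordering, from the bottom, Marco stood 2nd of the tested features, Adgre1 119th and Fcer1g 249th. Fcer1g had signals of 40.7 and 89.9 on siErbB4 replicates 2 and 1, and 47.4 and 271 on siScr replicates 2 and 1, with log2 differences of -1.13 in siErbB4 cells and -2.34 in siScr cells. For both genes siScr replicate 1 was the brightest array, and the lowest value was on siErbB4 replicate 2.

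Adgre1 was read by 2 probes with the same order. The brighter one gave 8.80 and 70.9 on siErbB4 replicates 2 and 1, and 3.77 and 181 on siScr replicates 2 and 1, and neither replicate 2 array was well above background. A dim array has only a bound, so the replicate 1 signal was set against the higher of the dim probe's own signal and the lowest signal well above background on the dim array, both scaled. On that scale the replicate 2 arrays were at least 7.002-fold lower in siErbB4 cells and at least 13.3-fold lower in siScr cells. The dimmer probe, the one that passed the brightness filter, gave 11.4 and 31.5 on siErbB4 replicates 2 and 1, and 8.11 and 85.7 on siScr replicates 2 and 1, where the value on siScr replicate 2 was not well above background. Both Adgre1 probes placed the replicate 1 arrays above the replicate 2 arrays in each group.

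Ptprc, the gene that marks every leukocyte, was at the limit of detection. Its only probe gave 6.72 and 14.3 on siErbB4 replicates 2 and 1, and 6.44 and 8.49 on siScr replicates 2 and 1. It was well above background on siErbB4 replicate 1 alone, so no fold change is given for it.

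The brightest probes of Itgam and Csf1r were steady between replicates. The brightest of 3 Itgam probes gave 4697 and 5464 on siErbB4 replicates 2 and 1, and 5207 and 6256 on siScr replicates 2 and 1, with log2 differences of -0.21 in siErbB4 cells and -0.09 in siScr cells. The other Itgam probes gave signals between 16.7 and 30.9, and their replicate differences lay between -0.24 and 0.29. The brightest Csf1r probe gave 923 and 944 on siErbB4 replicates 2 and 1, and 964 and 1010.1 on siScr replicates 2 and 1, with log2 differences of -0.02 in siErbB4 cells and 0.11 in siScr cells. A second Csf1r probe, between 417 and 459, gave -0.01 in siErbB4 cells and 0.07 in siScr cells, while the dimmest, between 34.0 and 56.4, gave 0.16 in siErbB4 cells and -0.56 in siScr cells. No probe of the integrin chain or the growth factor receptor moved by as much as the lysozymes or Marco. The Itgam probes differed widely in signal, and which of them reads the level of the gene was not tested.

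**Figure D1:**
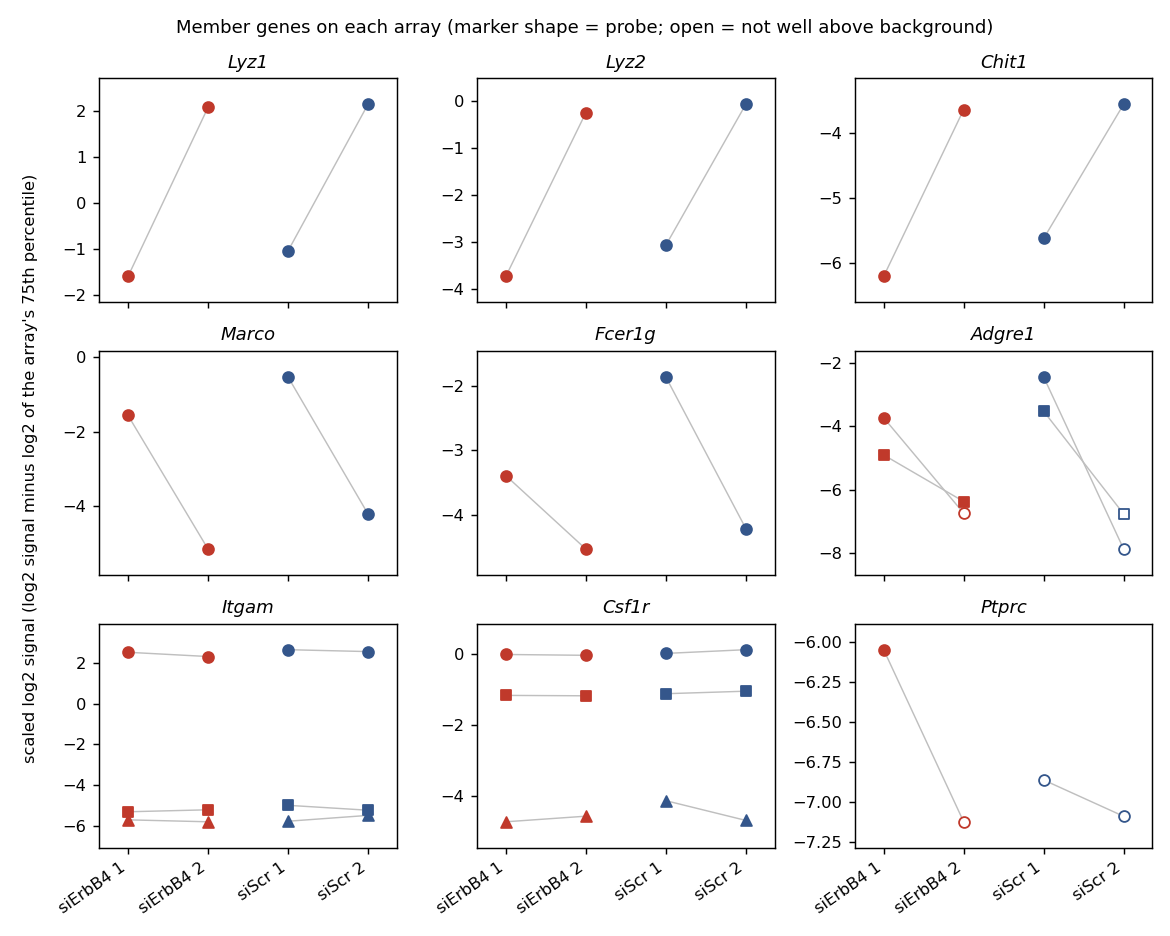
Scaled log2 signal (vertical axis, own range in each panel) of the 9 measured members on the 4 arrays, siErbB4 in red and siScr in blue, with 1 marker shape per probe and open markers where a spot was not well above background. Lines join the 2 replicates of a group: they climb towards replicate 2 for Lyz1, Lyz2 and Chit1, descend for Marco, Fcer1g and Adgre1, and are flat for the brightest probes of Itgam and Csf1r.

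The markers did not run together between replicates. Of the 8 tested members, 3 (Lyz1, Lyz2 and Chit1) were higher on replicate 2 by at least 1 log2 unit in both groups, where 1.62% of 20918 tested features were, and 3 (Marco, Fcer1g and Adgre1) were lower by as much in both groups, where 1.6% were. The set was chosen on this contrast, and nothing is read from these shares. Over the 9 measured members the median log2 difference was -0.21 in siErbB4 cells and -0.09 in siScr cells, against -0.04 and 0.07 over all named genes, and both medians hide differences of opposite sign. The siScr median was 0.0797 with normexp background correction and 0.11 over the 7 members well above background on all 4 arrays, and the siErbB4 median was -0.0236 over those 7, so neither is read as a shift.

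**Figure D2:**
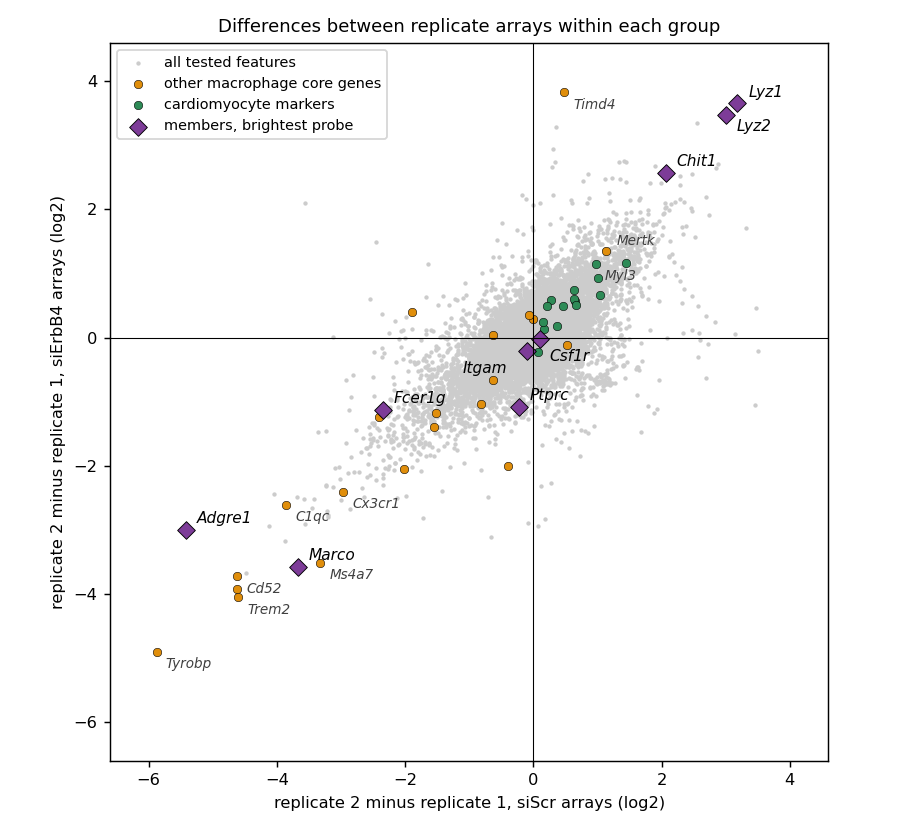
Replicate 2 minus replicate 1 in scaled log2 units, in siErbB4 cells (vertical axis) against siScr cells (horizontal axis), for all tested features (grey), the measured members (purple diamonds, brightest probe), other macrophage core genes seen on at least 1 array (orange) and cardiomyocyte markers (green). Lyz1, Lyz2 and Chit1 lie at the upper right, Marco, Fcer1g and Adgre1 at the lower left among other macrophage genes, and Itgam and Csf1r near 0.

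Between siErbB4 and siScr no member passed the test. Limma called 0 of 20918 features at a Benjamini-Hochberg adjusted p under 0.05 (374, or 1.79%, had an unadjusted p under 0.05, no member among them), and every tested member had a limma adjusted p of 1.00. All 8 tested members had lower means in siErbB4 cells, and 52.9% of tested features did. Over the 9 measured members the median difference was -0.31, against -0.0029 over all named genes. With 1 array left out it lay between -0.148 and -0.0419. Each of those medians was the value of Itgam, Csf1r or the dim Ptprc, so the range is no measure of the set. On the same arrays all 12 fibroblast and matrix genes were lower in siErbB4 cells (median -0.45, 0 of the 11 tested passed) and 11 of 12 pluripotency genes were higher (median 0.47, 0 of 12 passed), and their part in the members' values was not tested. Lyz1 averaged 0.25 ± 2.59 scaled log2 units in siErbB4 cells and 0.55 ± 2.25 in siScr cells (SD, n = 2 each), a difference of -0.31 whose standard error (SE) was 1.71 (95% interval -5.03 to 4.41). The difference was -0.42 for Lyz2 (SE 1.62) and -0.33 for Chit1 (SE 1.16). For these 3 genes the spread between replicates was larger than the difference between groups.

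Among the members that were bright on replicate 1, Marco averaged -3.35 ± 2.54 in siErbB4 cells and -2.36 ± 2.60 in siScr cells (SD, n = 2 each). Its difference of -0.99 (SE 1.81, 95% interval -5.98 to 4.004) was the largest in size among the members in this processing, while with normexp background correction Fcer1g (-0.85) exceeded Marco (-0.64). Fcer1g differed by -0.92 (SE 0.92, 95% interval -3.47 to 1.63) and the tested Adgre1 probe by -0.49 (SE 1.25, 95% interval -3.95 to 2.96). These intervals count the difference between replicate numbers as spread, and they include changes of several-fold in either direction. At this precision no direction can be given for Marco, Fcer1g or Adgre1. Set against the siScr array of the same number, with no test, siErbB4 replicates 2 and 1 differed by -0.94 and -1.03 for Marco, by -0.32 and -1.52 for Fcer1g and by 0.39 and -1.37 for the tested Adgre1 probe. For the genes that were bright on replicate 2, the same differences were -0.07 and -0.55 for Lyz1, -0.18 and -0.66 for Lyz2 and -0.08 and -0.58 for Chit1. The second Adgre1 probe differed by -0.08 without the filter, with neither replicate 2 array well above background.

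Leaving out 1 array leaves the groups with unequal replicate numbers, so for genes that differ between numbers the sign then follows that difference. Without siErbB4 replicate 2 the value was 0.81 for Marco and 0.24 for Adgre1, and without siScr replicate 1 it was 0.85 for Marco, 1.12 for Adgre1 and 0.25 for Fcer1g. Without siErbB4 replicate 1 it was 1.52 for Lyz1, 1.32 for Lyz2 and 0.95 for Chit1, and without siScr replicate 2 it was 1.28, 1.08 and 0.70 for the same genes. By this construction these values are no measure of how the groups differ.

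The tested probes of Itgam and Csf1r, the brightest of each gene, gave the narrowest intervals of the set. Itgam averaged 2.43 ± 0.15 in siErbB4 cells and 2.61 ± 0.07 in siScr cells (SD, n = 2 each), a difference of -0.19 (SE 0.15, 95% interval -0.60 to 0.23). Csf1r averaged -0.01 ± 0.02 in siErbB4 cells and 0.08 ± 0.07 in siScr cells (SD, n = 2 each), a difference of -0.09 (SE 0.13, 95% interval -0.46 to 0.27). For the brightest probe of both genes the 2 siErbB4 values lay below the 2 siScr values, as they did in 16% of tested features. In either direction 29% of features had groups that did not overlap. The groups overlapped in the other Itgam probes and in the dimmest Csf1r probe, but not in the second Csf1r probe. In a fit of all 32800 features without the brightness filter, limma called 0 and so not Ptprc (2.83% had an unadjusted p under 0.05, and 52.6% were lower in siErbB4 cells). No difference between groups is given for Ptprc, which was well above background on 1 array.

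**Figure D3:**
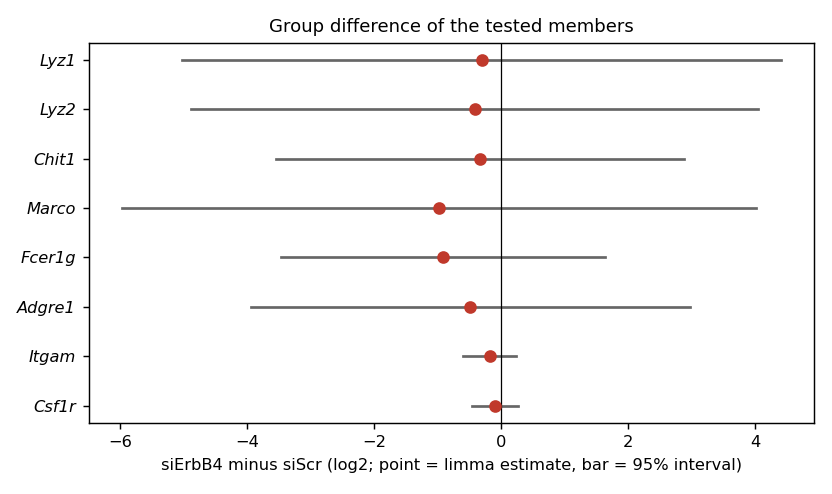
Difference in scaled log2 signal, siErbB4 minus siScr (horizontal axis), for the 8 tested members, with points at limma's estimate and bars for the 95% interval. All points lie left of 0 and all bars cross it; the bars of Itgam and Csf1r are far shorter than those of the other 6 members.

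Other genes of the macrophage programme were mostly seen on the replicate 1 arrays. Of 30 further macrophage core genes, all on the array, 8 were well above background on siErbB4 replicate 2 and 7 on siScr replicate 2, against 17 on siErbB4 replicate 1 and 20 on siScr replicate 1. The 9 that were so on no array were C1qa, Mrc1, Cd163, Fcgr2b, Fcgr3, Cd53, Cybb, Lyve1 and Ccr2. Well above background on both replicate 1 arrays and neither replicate 2 array were 10 of the 30 (33.3%), where 0.832% of all features were. None of the 30 showed the reverse, where 0.335% of all features did. Of all 32800 features, 20028 were well above background on all 4 arrays and 9642 on none, against 6 and 9 of the 30. Those cannot show either pattern, and the shares are not matched for brightness. The 10 were C1qc, Tyrobp, Laptm5, Cx3cr1, Fcgr4, Cd52, Ctss, Ms4a7, Mpeg1 and Trem2, singled out after their values were seen, and the brightness filter, set by group, left all 10 out of the test between groups. Some lay close to background. With the Adgre1 bound, Fcgr4 was at least 1.18-fold lower on replicate 2 in siErbB4 cells and at least 1.08-fold in siScr cells. For Laptm5 the bounds were 1.78-fold and 1.22-fold. The list was drawn up with earlier results of these arrays known. The summed scaled level of the 30 genes, which Lst1 dominated, was 3.12 and 3.63 on siErbB4 replicates 2 and 1, and 4.14 and 3.89 on siScr replicates 2 and 1.

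Tyrobp, the adaptor through which several myeloid receptors signal, gave 2.26 and 68.1 on siErbB4 replicates 2 and 1, and 2.73 and 181 on siScr replicates 2 and 1. By the bound used for Adgre1, the replicate 2 arrays were at least 6.73-fold lower in siErbB4 cells and at least 13.3-fold lower in siScr cells. Trem2, a lipid-sensing receptor that signals through Tyrobp, gave 8.24 and 137 on siErbB4 replicates 2 and 1, and 4.01 and 110 on siScr replicates 2 and 1, at least 13.6-fold lower on replicate 2 in siErbB4 cells and at least 8.08-fold lower in siScr cells. Both genes stood on the same side as Marco and Fcer1g. For Ctss, a lysosomal protease of antigen-presenting cells, the replicate 2 arrays were at least 3.42-fold lower in siErbB4 cells and at least 5.37-fold lower in siScr cells, and for the fractalkine receptor Cx3cr1 at least 3.54-fold and at least 6.25-fold lower.

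Of the 21 macrophage core genes well above background on any array, 9 were lower on replicate 2 by at least 1 log2 unit in both groups, where 1.66% of such features were, with a dim array taken at its bound. By the same count 1 was higher by as much, where 1.54% were. Cd14, the lipopolysaccharide co-receptor, was lower on replicate 2 by this measure, with log2 differences of -1.24 in siErbB4 cells and -2.41 in siScr cells. C1qb, a chain of the complement starter C1q, gave -0.66 in siErbB4 cells and -0.62 in siScr cells. The one that was higher was Mertk, a receptor for dying cells that other tissues also use, with 1.36 in siErbB4 cells and 1.14 in siScr cells. Between the groups, 7 of the 30 were tested and 0 passed, with a median of -0.25, 6 lower in siErbB4 cells and 1 higher, where 52.9% of tested features were lower. The lowest p among the tested belonged to Itgb2, the integrin chain that pairs with Itgam, at -0.51 (SE 0.25), and to the folate receptor Folr2 at 0.27 (SE 0.18).

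**Figure D4:**
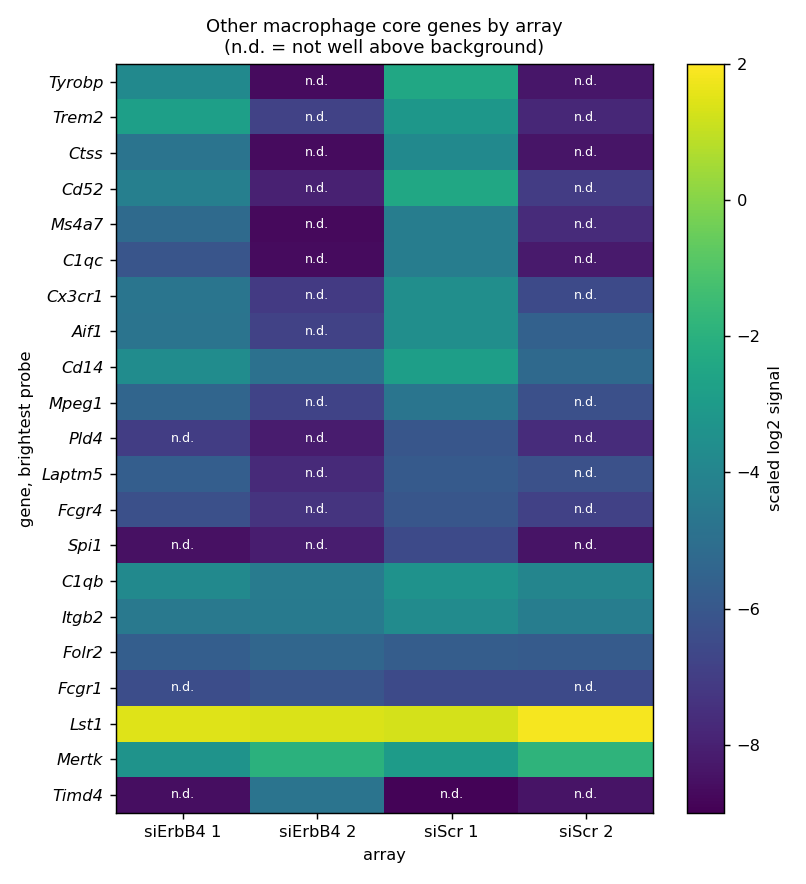
Scaled log2 signal (colour) of the 21 other macrophage core genes well above background on at least 1 of the 4 arrays (columns), ordered by their mean difference between replicates, with n.d. where a spot was not well above background. Tyrobp, Trem2, Ctss, Cd52, Ms4a7, C1qc and Cx3cr1 at the top are above background on siErbB4 replicate 1 and siScr replicate 1 and on neither replicate 2 array.

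Other lysozyme and chitinase genes were steadier between replicates than Lyz1, Lyz2 and Chit1. Of 12 further genes of the lysozyme and chitinase families, 6 were tested, and 0 moved by 1 log2 unit in both groups in either direction. Chil3, a chitinase-like protein of activated macrophages, gave log2 differences of 0.19 in siErbB4 cells and 0.58 in siScr cells, and Ctbs, a lysosomal enzyme that splits chitin fragments, gave -0.37 and -0.37. Between siErbB4 and siScr 0 of the 6 passed, with the lowest p for Chid1 at -0.33 (SE 0.15) and for Lalba, a milk protein of the lysozyme family, at -0.27 (SE 0.15).

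Of 10 further scavenger receptors 6 were tested. Cd36, which binds oxidised lipids and is also a fatty acid transporter of heart muscle, was brighter on replicate 2 with log2 differences of 1.65 in siErbB4 cells and 1.40 in siScr cells, opposite to Marco. Stab1 gave 0.18 and -1.30 and Colec12 gave -0.45 and -0.86 in siErbB4 and siScr cells. Scara5, a ferritin receptor, was lower in siErbB4 cells by the lowest p of this list, with signals of 11.1 and 10.6 on siErbB4 replicates 2 and 1 and 17.3 and 19.2 on siScr replicates 2 and 1, a difference of -0.76 (SE 0.13). It did not pass the test, with a limma adjusted p of 1, and lay close to background.

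Of 19 phagocyte lysosome genes, 18 were well above background on all 4 arrays. The same number were tested, 0 of those moved by 1 log2 unit in both groups, and the median difference between replicates was -0.13 in siErbB4 cells and -0.37 in siScr cells. The proteases Ctsd and Ctsb gave -0.34 and -0.21 in siErbB4 cells and -0.64 and -0.20 in siScr cells. The exception was Gpnmb, a membrane glycoprotein of lipid-laden phagocytes singled out after its values were seen, with 2.25 and 104 on siErbB4 replicates 2 and 1 and 3.41 and 232 on siScr replicates 2 and 1. Its replicate 2 arrays were at least 10.2-fold lower in siErbB4 cells and at least 17.1-fold lower in siScr cells. Between the groups 0 of the 18 passed, with the lowest p for the lysosomal protein progranulin (Grn) at -0.28 (SE 0.14) and for Ctsb at -0.20 (SE 0.16).

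Of 15 partners of the Fc receptor chain and of the integrin, 9 were tested. Of the 12 well above background on any array, 4 were higher and 6 lower on replicate 2 in both groups. Among all 23158 such features 8334 were higher and 7665 lower. Syk, the kinase recruited by Fcer1g, was brighter on replicate 2, with log2 differences of 1.32 in siErbB4 cells and 1.61 in siScr cells, while Fcer1g itself was dimmer. The integrin ligand Vcam1 gave 0.77 and 0.70 and the integrin chain Itga4 gave -0.83 and -0.66 in siErbB4 and siScr cells. Between the groups 0 of the 9 passed, and Icam1, a ligand of the integrin, gave 0.53 (SE 0.38).

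Of 16 ligands of the CSF1 receptor and regulators of myeloid cells, 14 were tested, and 3 were lower on replicate 2 by 1 log2 unit in both groups. They were Csf1, the main ligand of Csf1r (-1.21 in siErbB4 cells and -1.44 in siScr cells), the macrophage factor Maf (-1.54 and -1.46) and Runx1, a regulator of blood formation (-1.95 and -2.16). The ligand differed between replicates while the brightest probe of its receptor did not. Between the groups 0 of the 14 passed, with the lowest p for the transcription factors Klf4 at 0.35 (SE 0.19) and Myb at 0.49 (SE 0.32).

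Markers of other cell types also differed between the same arrays. Of 15 cardiomyocyte markers 14 were higher on replicate 2 in both groups, as were 10360 of all 32800 features. Their median log2 difference was 0.57 in siErbB4 cells and 0.64 in siScr cells. The atrial hormone gene Nppa gave 1.16 and 1.45, the myosin light chain Myl3 1.15 and 0.97 and troponin I (Tnni3) 0.93 and 1.00 in siErbB4 and siScr cells. The summed scaled level of these 15 genes was 2155 and 1620.5 on siErbB4 replicates 2 and 1, and 2346 and 1689 on siScr replicates 2 and 1. Fibroblast and matrix genes ran the other way, with 11 of 12 lower on replicate 2 in both groups, as were 9158 of all 32800 features. Their medians were -0.93 in siErbB4 cells and -1.51 in siScr cells. Col1a1 gave -2.19 and -2.34, Postn -1.52 and -2.26 and Col3a1 -1.16 and -2.23, and the summed level was 31.2 and 71.5 on siErbB4 replicates 2 and 1, and 33.5 and 90.5 on siScr replicates 2 and 1. Lyz1, Lyz2 and Chit1 were high on the arrays where cardiomyocyte genes were higher, and Marco, Fcer1g and Adgre1 on those where matrix genes were higher. The part of either marker list in the members' values was not tested.

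Endothelial markers had medians of -0.31 in siErbB4 cells and -0.86 in siScr cells. Of the 12, 9 were lower on replicate 2 in both groups, as were 9158 of all 32800 features. Cdh5, the cadherin of endothelial junctions, gave -1.14 and -1.88. Higher in both groups were 2 growth factor receptors, picked out with their values known, Flt1 (0.61 in siErbB4 cells and 0.70 in siScr cells) and Kdr (0.10 and 0.49). Endoderm markers had medians of 0.45 and 0.50 and pluripotency markers -0.19 and 0.35 in siErbB4 and siScr cells. Between siErbB4 and siScr 0 of the 15 cardiomyocyte, 11 fibroblast, 10 endothelial, 10 endoderm and 12 pluripotency genes tested passed.

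The genes whose 4 values ran most like those of the members were found among 14985 named tested genes, by the root mean square distance between profiles centred on their own mean over the 4 arrays. Nearest to the mean profile of Lyz1 and Lyz2 were Sbk3 (0.216 log2 units), Pirt (0.363), Ush1c (0.407), Gja5 (0.434), Mhrt (0.530) and C1ql1 (0.543), and 4 genes lay within 0.5. Sbk3 and C1ql1 were each well above background on 3 of the 4 arrays, so their distances rest in part on a spot at background. Sbk3 had replicate differences of 3.34 in siErbB4 cells and 2.55 in siScr cells. Gja5, a connexin of atrial and conduction system muscle, gave 2.56 and 2.47, and Mhrt, a transcript antisense to a cardiac myosin gene, gave 2.52 and 2.29. Gja5 and C1ql1 were also among the 3 nearest to Chit1 (0.171 and 0.165), after the calcium channel gene Cacna1g (0.128), and 100 genes lay within 0.5 of Chit1.

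Marco had 6 genes within 0.5. Nearest were the acute-phase gene Saa3 (0.254), Slfn2 (0.280) and the protease inhibitor Serpinb1a (0.330), which was 350.4 and 4480.1 on siErbB4 replicates 2 and 1 and 392.02 and 9889 on siScr replicates 2 and 1. Fcer1g was followed most closely by Rac2, a GTPase of blood cells (0.122), Upk3b (0.123) and the collagen Col3a1 (0.128), among 254 genes within 0.5. Saa3 and Upk3b were also well above background on 3 of the 4 arrays only. For Itgam and Csf1r the order of likeness says little, because 13632 and 13758 of the genes lay within 0.5 of profiles that hardly moved; the nearest were Prex1, Cracr2b and B020031M17Rik for Itgam and P2rx5, Acan and Dcp1b for Csf1r. All these distances rest on 4 arrays and are given with no test.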

How the data were processed

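Total RNA of 4 samples was measured on Agilent 1-colour (Cy3) arrays. Per the submitters' processing notes, the images were read with Agilent Feature Extraction 10.7.1.1. The deposited processed intensity of each spot was background-subtracted and detrended within its array and not scaled between arrays, per the file headers. The log2 values of the authors' deposited table matched the processed signal divided by the 75th percentile of its array (correlation 0.999999, largest difference 0.00291 for single-spot probes). Its column medians were -3.83 and -3.86 for siErbB4 1 and 2 and -3.81 and -3.83 for siScr 1 and 2, so scale, centring and direction are known.

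Of 44397 spots 1377 controls and the outlier-flagged spots (131 to 179 per array) were left out, 0 were saturated, and 39417 probes remained. The 75th percentile, 878 to 989 across arrays, was taken over non-control probes. Probes were named through unversioned RefSeq accessions in a GRCm38.p6 table (27498 matched, 11919 did not). A feature was tested if both arrays of either group had it well above background (20918, of them 14993 named genes), taking the brightest such probe of a gene. Limma 3.58.1 (R 4.3.3) gave two-sided moderated tests, adjusted by Benjamini-Hochberg, with calls at an adjusted p under 0.05. Intervals are limma's 95% intervals. The fit was tested on simulated data. Bounds use the lowest signal well above background (9.63 to 12.0).

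The members, lists, motifs and tests were chosen with earlier results of these data known. Named by rule are all members, the 2 genes with the lowest p and the 3 with the largest replicate differences per list (well above background on all 4 arrays), and the 6 or 3 genes nearest in profile. A result under this rule is not reported here. Alternatives were normexp background correction (offset 50), quantile normalization, no filter, a filter on all 4 arrays, the mean of a gene's probes, the deposited table, a replicate block and leaving out each array.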

Additional observations from a re-analysis of the deposited data

How the results depend on the processing

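The count of called features was 0 under every alternative run, and 182 (without siErbB4 replicate 1) to 1563 (replicate block) had an unadjusted limma p under 0.05. Of 61 member results under settings that keep all 4 arrays, 61 kept their direction and stayed on the same side of the threshold. Much of this was fixed in advance. A replicate block leaves each estimate unchanged, as do the filters and the mean of probes where the probe used stays the same. The deposited table holds nearly the same values, and Ptprc, counted among the 61, did not pass the brightness filter. The count is therefore not read as an independent check. Leaving out 1 array, with the lone sample assumed to vary like the other group, gave ranges of -2.14 to 1.52 for Lyz1, -2.16 to 1.32 for Lyz2, -1.62 to 0.95 for Chit1, -2.82 to 0.85 for Marco, -2.09 to 0.25 for Fcer1g, -2.11 to 1.12 for Adgre1 and -0.15 to 0.93 for Ptprc. By construction the groups then hold unequal replicate numbers, and the sign follows the difference between those numbers, while the Ptprc signals were mostly at background and are no measure. The ranges for Itgam (-0.29 to -0.08) and Csf1r (-0.15 to -0.04) kept their sign. This too was fixed in advance, because both siErbB4 values of the tested probes lay below both siScr values. The median difference between groups over the 9 members, -0.31, lay between -0.148 and -0.0419 with 1 array left out. The lysozymes and Marco then take opposite signs, and the median falls on Itgam, Csf1r or Ptprc. That range is therefore not read as stability of the set. The median replicate difference in siErbB4 cells, -0.21, was -0.0236 over the 7 members well above background on all 4 arrays and -0.0691 with the mean of a gene's probes. In siScr cells it was -0.09, and 0.0797 with normexp and 0.11 over those 7 members. With normexp the dim members' differences between groups shrank, to -0.64 for Marco and -0.02 for Chit1.

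A fit with a replicate block called 0 features, and its lowest adjusted p was 0.0849. Marco then had an SE of 0.12 around -0.99 and a limma adjusted p of 0.548. The labels do not say that a replicate number marks a shared culture or day, so the samples may share only a number.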

Other observations

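Some genes of other blood cells passed the brightness filter on the same arrays, as did 7 of the 30 macrophage core genes. Of 11 neutrophil genes on the array 4 were tested. Csf3r, the receptor of granulocyte colony-stimulating factor and singled out after its values were seen, was bright and steady, with 25553 and 25558 on siErbB4 replicates 2 and 1 and 26182 and 24109 on siScr replicates 2 and 1 (log2 differences 0.01 and 0.29). The milk and granule protein Ltf was brighter on replicate 2, with 110 and 16.5 on siErbB4 replicates 2 and 1 and 67.6 and 28.5 on siScr replicates 2 and 1 (log2 differences 2.75 and 1.42). The granule protease Elane gave 0.26 in siErbB4 cells and 0.46 in siScr cells, the antimicrobial peptide Camp -0.11 and -0.12, and 5 of the 11 were well above background on no array. Of 9 mast cell genes 4 were tested. Hdc, which makes histamine, had signals of 542 and 122 on siErbB4 replicates 2 and 1 and 514 and 118 on siScr replicates 2 and 1, with log2 differences of 2.16 and 2.29 that ran with the lysozymes. Mcpt4, a mast cell protease, ran the other way, at -0.50 and -1.63. Of 12 lymphocyte genes 4 (Cd3e, Cd4, Lck and Nkg7) were tested and 0 moved by 1 log2 unit in both groups. Cd4, a T cell co-receptor, had signals between 931 and 1053 and the cytotoxic granule gene Nkg7 between 519 and 607.

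Of 12 erythroid and megakaryocyte genes, 8 were well above background on at least 1 array. Of these 8, 6 were lower on replicate 2 in both groups, as were 7665 of 23158 such features. Pf4, a platelet chemokine singled out after its values were seen, gave 2.17 and 338 on siErbB4 replicates 2 and 1 and 2.43 and 35.5 on siScr replicates 2 and 1. Its replicate 2 arrays were at least 33.4-fold lower in siErbB4 cells and at least 2.62-fold lower in siScr cells. Itga2b, the platelet integrin chain, gave log2 differences of -1.66 and -0.60. Timd4, a receptor of resident macrophages singled out in the same way, was well above background on siErbB4 replicate 2 alone, with 34.2 there and 2.43 on siErbB4 replicate 1, and 2.55 and 2.05 on siScr replicates 2 and 1. Between siErbB4 and siScr, limma called 0 genes of these 4 lists.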
